A study of Homo sapiens with 36 samples.

Results

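The 8 genes described here are PPARA, the gene of the nuclear receptor PPARα, its fasting targets PDK4, ANGPTL4 and CPT1A, and the β-oxidation genes CPT2, ACADVL, ACADM and HADHA. They were chosen by symbol, as 8 of the 18932 rows of a count table, and were followed across all 12 groups of an RNA-seq study of HepG2, an established human hepatoma cell line. The 6 treatments were vehicle (Ctrl, which received BSA, ethanol and DMSO), docosahexaenoic acid (DHA, an n-3 fatty acid, 50 µM), propionate (PRO, a short-chain fatty acid, 70 µM), protocatechuic acid (PCA, a phenolic acid, 20 µM), DHA + PRO and DHA + PCA. Each was applied for 6 h and for 24 h in serum-free medium, with 3 independent cultures per group and the RNA of 3 culture replicates pooled within each. All groups thus shared the lack of serum, and no group was taken before treatment, so that a difference between 24 h and 6 h is also one between longer and shorter serum-free culture.

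PPARα is a receptor that binds fatty acids, pairs with the retinoid X receptor on DNA and raises the transcription of genes of fatty acid breakdown, most of all in the liver during fasting. In β-oxidation, long-chain fatty acids enter the mitochondrion as carnitine esters. CPT1A makes the ester on the outer membrane and CPT2 takes it apart inside, after which acyl-CoA dehydrogenases and the trifunctional protein shorten the chain. PDK4 shuts off pyruvate dehydrogenase and so spares glucose. ANGPTL4 is a secreted inhibitor of lipoprotein lipase.

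All 10 hepatocyte and hepatoma markers examined (among them ALB, AFP and APOA1) had reads in every one of the 36 libraries. Of 8 markers of blood, endothelial and stromal cells, 0 had reads in every library, and PTPRC, DCN and LUM had a median of 0 reads. The others had low but nonzero medians, with 11.5 reads for CD14, 7 for COL1A1, 3 for COL3A1, 1 for PECAM1 and 0.5 for VWF. The 6 h libraries held 4659744 to 10788964 counts each. Those of 24 h held 5617341 to 8657882, apart from replicate 2 of DHA + PRO at 24 h, which had 42326734. The titles number the libraries in 2 series, and the later one holds 7 libraries of 6 h and 6 of 24 h. In the earlier series the column headers give index sequences, 11 of which were used at both times. Which libraries were sequenced together is not given in the sources used here, and in that series time and sequencing pool cannot be told apart. Differences between times within each series are given beside the pooled ones, for the lists of other genes as counts. They cannot separate time from sequencing pool in the earlier series, and the runs of the later one are not known.

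PPARα and its partner bind a direct repeat called DR1, 2 copies of AGGTCA with 1 base between them. Windows of 5000 bases on either side of each gene's start in hg19 were searched for it on both strands, and the matches near the fasting targets are shown because PPARα is known to act on these genes through such repeats. PDK4 had 1 match with 1 mismatch and CPT1A had 4 with 2 mismatches, while ANGPTL4 had 0 within 2 mismatches. Each sequence reads 5′ to 3′ on the strand of the repeat, and capitals mark the 13 bases of the match.
PDK4, chr7:95230541-95230553, plus strand, 4622 bases before the start: cttggaggAAGTCATAGGTCAtctgactt
CPT1A, chr11:68608200-68608212, minus strand, in an intron, 1193 bases after the start: gtcaggagAGGCCATGGGTCAgcgtcttt
CPT1A, chr11:68606868-68606880, plus strand, in an intron, 2525 bases after the start: agaaaagtAGGGGAAAGGTCAgcagcagc
CPT1A, chr11:68613025-68613037, minus strand, 3632 bases before the start: gaggcccaAGGTGCAAGGTCAgagggact
CPT1A, chr11:68614135-68614147, plus strand, 4742 bases before the start: ggtgcagcAGGCCACAGGGCAcagagctg
Within 1 mismatch, 9.40% of the 18932 windows of all genes held a match, as did that of PDK4 alone among the 8 genes. Within 2 mismatches the share was 63.1% of all windows and 6 of the 8 genes, CPT2 and ANGPTL4 being those without one. A perfect match lay in 0.692% of windows and in 0 of the 8. These matches describe letters in a window and say nothing of binding.

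Per transcript length, the enzymes of the oxidation spiral were the most abundant of the 8 and the fasting targets the least. Levels between genes are compared as RPKM, which divides the reads by the counted length and the library size, as mean ± SD over the 36 libraries. HADHA, the subunit of the trifunctional protein that hydrates and oxidises long-chain acyl-CoA (NM_000182, chr2:26413504-26467594, minus strand), had 111 ± 5.88 RPKM. ACADVL, the very long-chain acyl-CoA dehydrogenase of the first step (NM_001270447, chr17:7120444-7128586, plus strand), had 81.5 ± 8.83. The medium-chain enzyme ACADM (NM_000016, chr1:76190032-76229363, plus strand) had 27.5 ± 6.04. Among the genes tested, these 3 lay at percentiles 94.8, 92.3 and 74.0 of mean RPKM.

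CPT2 (NM_000098, chr1:53662101-53679869, plus strand) had 10.3 ± 1.56 RPKM and lay near the middle of all genes tested, at percentile 46.8. PPARA itself (NM_005036, chr22:46546499-46639653, plus strand) had 6.23 ± 1.06 RPKM and CPT1A (NM_001031847, chr11:68522088-68609399, minus strand) had 4.38 ± 1.49. ANGPTL4 (NM_139314, chr19:8429011-8439259, plus strand) was lower still, at 0.985 ± 0.395 RPKM and percentile 8.28. Among the 8 genes, those of entry into the mitochondrion thus had lower mRNA levels than those of the spiral. CPT2 lay below ACADM, and CPT1A below CPT2, in every library. The order of neighbours held in 36 of 36 libraries for each pair of the 8, except that PPARA was above CPT1A in 30 of 36. The ratio of PPARA to CPT1A ran from 0.692 to 2.89 (median 1.55), while that of HADHA to ACADVL ran from 1.12 to 1.78. CPT1A was above PPARA only in libraries of 6 h with DHA, namely replicates 2 and 3 of DHA, of DHA + PRO and of DHA + PCA. Whether this ratio differed with time or DHA was not tested.

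PDK4 (NM_002612, chr7:95212809-95225925, minus strand) was close to absent. It had 10 reads in the 36 libraries together, with 0 in 29 libraries, 1 in 4 and 2 in 3. Every library was under a floor of 3 reads, which corresponds to 0.0194 to 0.174 RPKM depending on depth, so that no fold is given and the gene did not enter any test. Of the 10 reads, 9 were at 6 h and 1 at 24 h, and 9 were in libraries with DHA and 1 in a library without. Libraries with DHA that held reads were replicate 2 (1 read) and replicate 3 (2 reads) of DHA at 6 h, replicate 2 (1) of DHA + PRO at 6 h, replicates 1 and 3 (2 each) of DHA + PCA at 6 h, and replicate 1 (1) of DHA + PCA at 24 h. At this depth a level of PDK4 under the floor was not measurable in any group.

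**Figure D1:**
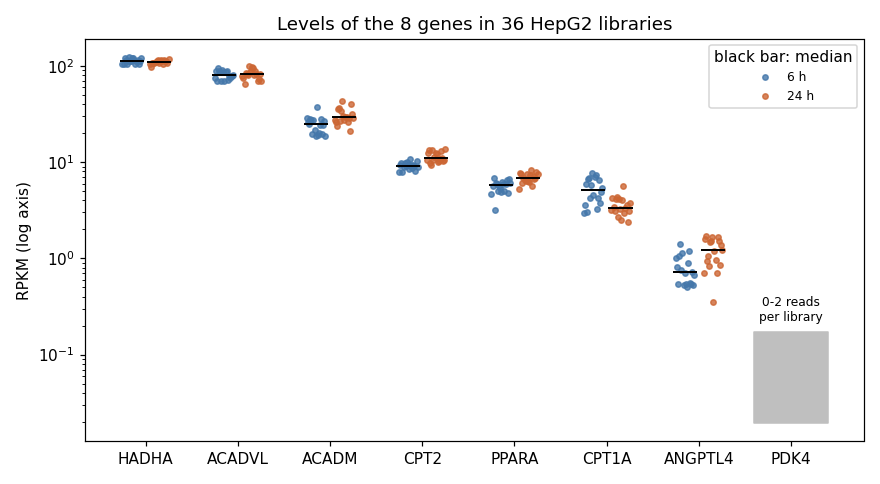
Level of each of the 8 genes in the 36 libraries on a log axis of RPKM, with 6 h and 24 h side by side, each point 1 library and the black bar the median of 18. HADHA and ACADVL lie near 111 and 81.5 RPKM and ANGPTL4 near 0.985, and the grey box shows the floor of 3 reads (0.0194 to 0.174 RPKM) under which every PDK4 value lay.

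The first comparison asked how the 8 genes differed between 24 h and 6 h, over all 6 treatments. PPARA, ANGPTL4, CPT2 and ACADM were higher at 24 h, CPT1A was lower, and neither ACADVL nor HADHA passed the test. A call required an average log2 CPM above 0 and, in edgeR's quasi-likelihood test, a Benjamini-Hochberg adjusted p of at most 0.05. CPM stands for counts relative to TMM-scaled library sizes. Called were 5 of the 7 genes that passed the filter on low counts. With 61% of all 12046 genes called (30.1% higher and 31% lower at 24 h), this share is near the background and is no result about these genes as a group. In bulk RNA, fewer cells of a kind and less RNA per cell cannot be told apart.

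PPARA lay between 32.1 and 68.1 CPM at 6 h (median 58.3, n = 18) and between 53.2 and 82.6 at 24 h (median 68.5, n = 18). The ranges overlapped, and the lowest value at 6 h was replicate 1 of DHA. Its log2 fold change was 0.31 (SE 0.0719), a 1.24-fold rise, with an adjusted p of 0.000416 in edgeR. The mean was higher at 24 h in each of the 6 treatments. Within the series of library numbers the log2 difference was 0.38 in the earlier and 0.22 in the later.

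Of the fasting targets, ANGPTL4 rose and CPT1A fell. ANGPTL4 had few reads, between 6 and 24 per library at 6 h, then between 4 and 95 at 24 h, which makes its values the least precise of the 7. Its CPM ran from 0.957 to 2.68 at 6 h (median 1.36) and from 0.668 to 3.23 at 24 h (median 2.31), with broad overlap. The log2 fold change was 0.61 (SE 0.168), or 1.52-fold (adjusted p = 0.00221 in edgeR), and 5 of the 6 treatments had a higher mean at 24 h, the exception being DHA alone (2.05 ± 0.610 CPM at 6 h and 1.79 ± 0.203 at 24 h, SD, n = 3). Without the deep replicate 2 of DHA + PRO the log2 fold change was 0.53 and the adjusted p 0.0101. It was 0.31 in the earlier series and 0.76 in the later.

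CPT1A is usually described as the rate-limiting step of long-chain oxidation. Its CPM ran from 7.85 to 20.4 at 6 h (median 13.5) and from 6.23 to 14.98 at 24 h (median 8.89). The 24 h values were the more compact, but the ranges overlapped. The gene fell by 0.52 on the log2 scale (SE 0.124, adjusted p = 0.000492 in edgeR), a level 1.44-fold lower, and the mean was lower at 24 h in all 6 treatments. In Ctrl this direction rested on replicate 3 of 6 h, since the log2 fold change there turned from -0.16 to 0.14 without it, neither value passing the test. Within the series the log2 difference was -0.34 in the earlier, where 5 of 6 treatments were lower, and -0.70 in the later, where 6 of 6 were. At 6 h, the highest of the 3 values was replicate 3 in each of the 6 treatments, all from the later series.

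CPT2, the inner enzyme of the same shuttle, went the other way. It ran from 23.5 to 32.7 CPM at 6 h (median 27.5) and from 27.7 to 40.6 at 24 h (median 32.9). At 24 h 9 of 18 values were at or under the highest of 6 h, and 8 of 18 at 6 h were at or over the lowest of 24 h. The log2 fold change was 0.30 (SE 0.0587, adjusted p = 3.5e-05 in edgeR), the smallest p of the 8 genes, and the sign was the same in 6 of 6 treatments. It was 0.29 in the earlier series and 0.36 in the later. The annotated span of CPT2 overlaps that of C1orf123 on the other strand by 98 bases, and since the library kit does not mark strand, reads there cannot be assigned to either gene. C1orf123 had a mean of 28.5 RPKM, above that of CPT2.

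Among the enzymes of the spiral, ACADM rose while the log2 fold changes of ACADVL and HADHA were close to 0. ACADM ran from 49.1 to 98.1 CPM at 6 h (median 65.2) and from 55.7 to 114 at 24 h (median 76.6), with a log2 fold change of 0.29 (SE 0.0796, adjusted p = 0.00192 in edgeR). The mean was higher in 5 of the 6 treatments, the exception being Ctrl with 69.96 ± 4.57 CPM at 6 h and 67.2 ± 4.39 at 24 h (SD, n = 3). The log2 difference was 0.19 in the earlier series and 0.39 in the later.

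ACADVL spanned 151 to 209 CPM at 6 h (median 173) and 140 to 218 at 24 h (median 178). Its log2 fold change was 0.016 (95% interval -0.076 to 0.11, adjusted p = 0.777 in edgeR), with 0.11 in the earlier series and -0.11 in the later. HADHA spanned 316 to 375 CPM at 6 h (median 344) and 294 to 356 at 24 h (median 335), and its log2 fold change was -0.038 (95% interval -0.10 to 0.026, adjusted p = 0.301 in edgeR), with -0.024 in the earlier series and -0.069 in the later. Changes within these intervals were compatible with the data, so a small change of either gene was not excluded. The annotated span of ACADVL overlaps DLG4 on the other strand by 2926 bases, and DLG4 had a mean of 0.729 RPKM.

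**Figure D2:**
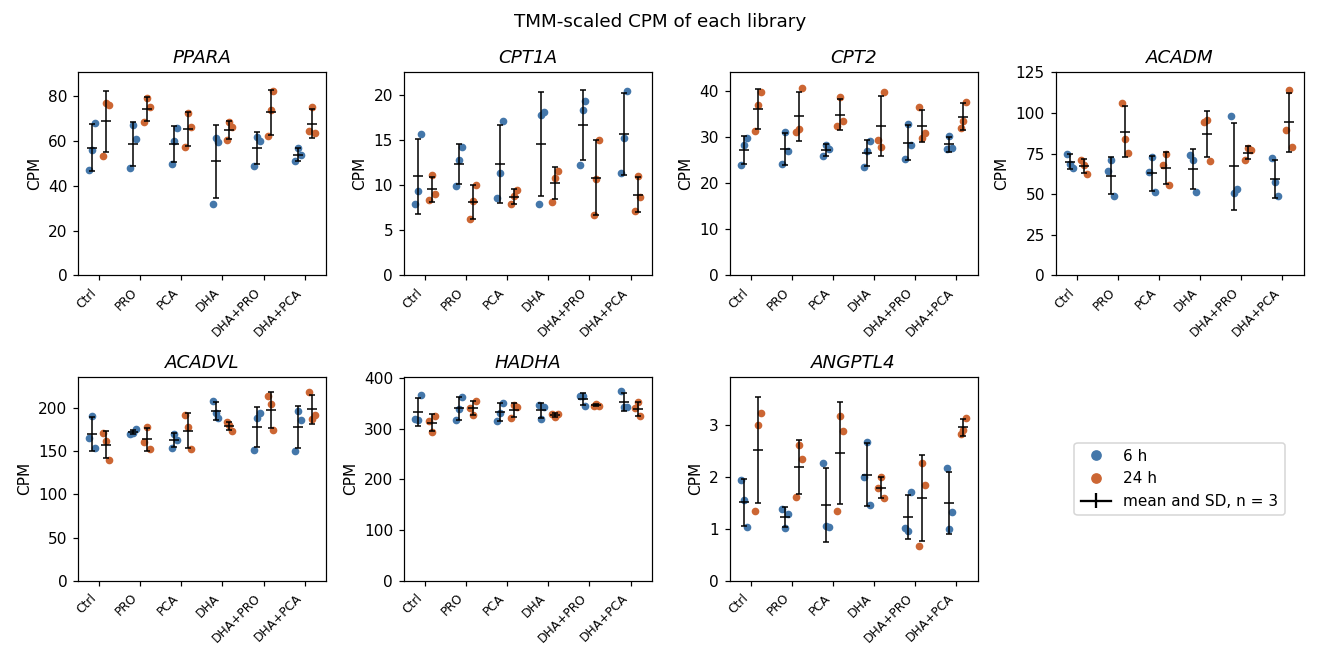
CPM of the 7 tested genes in every library, by treatment, with 6 h in blue and 24 h in orange, and the mean and SD of 3 cultures in black, on axes that start at 0. CPT1A is lower at 24 h in the mean of each of the 6 treatments, PPARA and CPT2 are higher in each, and HADHA stays between 294 and 375 CPM throughout.

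No gene of the 8 separated its 18 libraries of 6 h fully from its 18 of 24 h, which 6.02% of all genes tested did. The 5 calls held in each of the 42 alternatives run, among them the omission of each library in turn. The alternative with no limit on average log2 CPM could not change them, since all 5 lay above that limit. The p-values measure the spread between 3 independent cultures per group. The replicate number was not in the main fit, so any spread that equal numbers share between groups remained in these p-values.

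Within single treatments, where 3 cultures stand against 3, few of these differences passed the test. In Ctrl CPT2 was the only 1 of the 7 that did, with a log2 fold change of 0.41 (SE 0.143, adjusted p = 0.0321 in edgeR), where 26% of all genes were called. The 3 Ctrl values of CPT2 were 23.8, 28.1 and 29.7 CPM at 6 h and 31.2, 36.9 and 39.7 at 24 h, and they did not overlap, as was so for 40.7% of all genes. The adjusted p rose to 0.167 without Ctrl replicate 1 of 6 h, 0.0524 without replicate 2 of 6 h, 0.0891 without replicate 2 of 24 h, 0.153 without replicate 3 of 24 h, and 0.0587 with no filter on low counts. In DHA + PCA, ACADM was called, with 72.2, 57.2 and 49.1 CPM at 6 h and 89.3, 114 and 79.3 at 24 h. The log2 fold change there was 0.66 (SE 0.196, adjusted p = 0.0157 in edgeR) against a background of 18.7% of genes called. This call was lost without replicate 2 or 3 of DHA + PCA at 6 h (adjusted p = 0.0607 and 0.0859 in edgeR) and without replicate 2 at 24 h (0.116).

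In PRO, PCA, DHA and DHA + PRO, 0 of the 7 genes were called by edgeR, while 14.1%, 27.5%, 19.4% and 20.3% of all genes were. At an unadjusted p under 0.05 the counts were 2, 1, 2 and 1, beside 3262, 4725, 3850 and 4010 of all 12046 genes. DESeq2's Wald test called 0, 1, 0 and 0 of the 7. With the replicate number as a block, edgeR called 3 (PPARA, CPT1A and ACADM), 2 (CPT1A and CPT2), 3 (PPARA, CPT1A and ACADM) and 2 (PPARA and CPT1A), and 3 in DHA + PCA (PPARA, CPT1A and ACADM). The column headers pool 3 numbered culture replicates per library and repeat the same numbers in every group. The sources do not say whether equal numbers mark 1 experiment in all groups. CPT1A had its largest difference in DHA + PCA, with a log2 fold change of -0.80 (SE 0.307, adjusted p = 0.0655 in edgeR). It passed there in 6 of 13 alternatives, and the adjusted p ran from 0.00172 with the replicate block to 0.256 over the 13 (edgeR or DESeq2). One of the 6 was the omission of replicate 1 of 6 h (-0.99, adjusted p = 0.0386 in edgeR). ANGPTL4 in PCA passed without replicate 1 of 6 h (1.25, adjusted p = 0.0497 in edgeR) and ACADM in DHA + PRO without replicate 1 of 6 h (0.55, adjusted p = 0.0464 in edgeR). ACADM in PRO passed in 3 of 13 alternatives, namely the library series as a factor (adjusted p = 0.00332 in edgeR), the replicate block (0.00726) and no filter on low counts (0.0411). CPT2 in PCA passed in 4 of 13, with the adjusted p running from 0.0242 to 0.218 (edgeR or DESeq2). The values at 6 h and 24 h did not overlap for 1 of the 7 genes in Ctrl, 4 in PRO, 5 in DHA + PCA and 1 each in PCA, DHA and DHA + PRO. Of all genes tested, 40.7%, 27.1%, 37%, 44.5%, 33.8% and 32.9% did not overlap in the same order. Whether the time difference itself differed between treatments was tested for DHA against no DHA, and is given with the DHA effects.

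**Figure D3:**
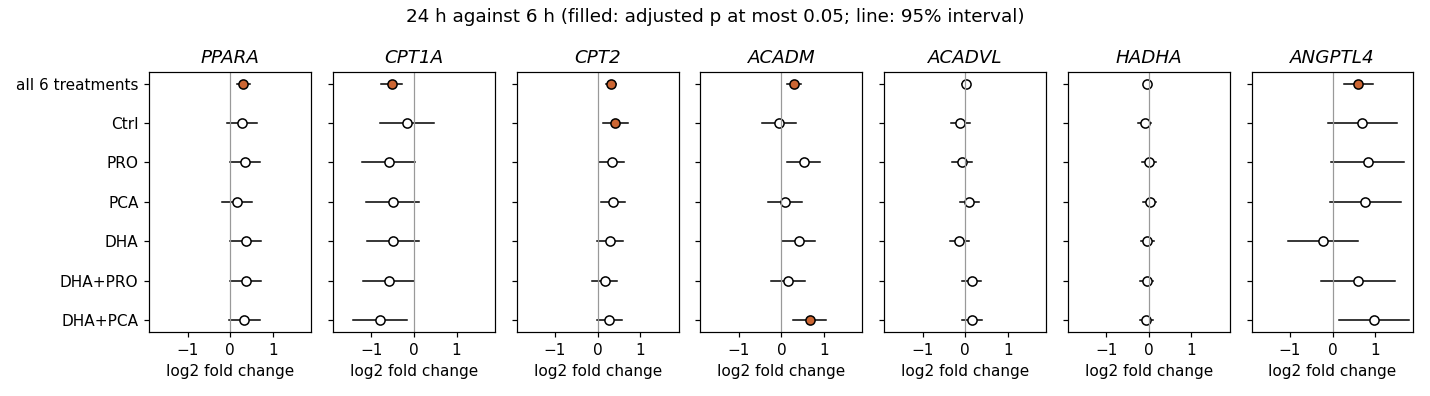
Log2 fold change of 24 h against 6 h for the 7 tested genes, over all 6 treatments and in each, with 95% intervals and filled points where the adjusted p was at most 0.05. The pooled values are filled for PPARA, CPT1A, CPT2, ACADM and ANGPTL4, and within treatments only CPT2 in Ctrl (0.41) and ACADM in DHA + PCA (0.66) are filled.

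The other genes of the pathway, from lists made for this purpose, were set beside the 8 genes in the same comparison of times. These lists, like the 8 genes, were chosen with earlier results of these data known. Their counts beside those of all genes are thus a description and no independent test. Each list is described by its counts, against 30.1% of all genes higher, 31% lower and a median log2 fold change of -0.0081 over all genes. Of 18 tested genes among 22 other textbook targets of PPARα, 14 were higher at 24 h, 1 was lower (ACSL1, -0.36, named after its value was seen) and 3 were not called, and the median log2 fold change was 0.35. FABP1, which carries fatty acids in the hepatocyte, had the smallest p of the list and rose from 163 to 365 CPM at 6 h (lowest and highest of 18) to 545 to 1117 at 24 h, without overlap. Its log2 fold change was 1.80. PLIN2, a coat protein of lipid droplets, APOA5, an apolipoprotein that promotes triglyceride clearance, and UCP2, a mitochondrial carrier, also rose without overlap, with log2 fold changes of 0.92, 0.97 and 0.98. FGF21, CYP4A11, CYP4A22 and G0S2 had at most 13, 4, 1 and 5 reads in any library and were not tested.

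Of 17 tested genes of mitochondrial oxidation outside the 8 genes, 11 were higher, 1 was lower and 5 were not called (median log2 fold change 0.16). Carnitine acetyltransferase CRAT rose by 0.55, the dienoyl-CoA reductase DECR1 by 0.41 and the dehydrogenase ACAD11 by 0.55 on the log2 scale, while ETFA, which passes electrons from the dehydrogenases to the respiratory chain, fell by 0.29. Of 14 tested peroxisomal genes, 8 were higher and 3 lower, with the thiolase ACAA1 (0.39), the reductase DECR2 (0.34) and the oxidase ACOX3 (0.34) among those that rose and the transporter ABCD3 (-0.44) among those that fell.

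PDK4 was not testable, but the 3 other pyruvate dehydrogenase kinases were, and all of them rose. PDK1 ran from 19.2 to 28.96 CPM at 6 h and from 57.4 to 99.4 at 24 h, with no overlap and a log2 fold change of 1.64 (SE 0.0614, adjusted p = 1.35e-21 in edgeR). PDK2 and PDK3 had log2 fold changes of 0.38 and 0.34. Over the 11 tested genes of the pyruvate dehydrogenase complex and its regulators, 4 were higher, 4 lower and 3 not called, and DLAT, a core subunit, fell by 0.21.

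Of 8 genes that set malonyl-CoA, the inhibitor of CPT1A, 3 were higher, 1 was lower and 4 were not called. The AMPK subunits PRKAG2 and PRKAB1 rose by 0.93 and 0.094 and PRKAA2 fell by 0.31, and ACACB, which makes malonyl-CoA at the mitochondrion, rose by 0.28. Among 14 tested receptors, partners and coregulators of PPARα, 1 was higher, 5 lower and 8 not called, with a median of -0.090. PPARG was the one that rose (0.54), while the coactivators PPARGC1A (-0.42) and MED1 (-0.22) and the corepressor NCOR1 (-0.19) were among those that fell. Beside ANGPTL4, all 3 of the tested lipases and partners (of 7 listed) rose, with log2 fold changes of 1.48 for LIPG, 0.73 for LIPC and 0.99 for LMF1. LPL, the enzyme that ANGPTL4 inhibits, had at most 1 read in any library. All called genes of these 7 lists kept their direction between times in both library series, except 1 of the 12 of mitochondrial oxidation, ACAD9 (0.12 pooled, 0.19 in the earlier series and -0.00033 in the later), named after its values were seen. For PDK1 the log2 difference was 1.58 in the earlier series and 1.64 in the later, and for FABP1 1.76 and 1.92.

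Hepatocyte markers moved between the times too. Of 10 tested, 6 were higher at 24 h and 2 lower, from TTR at 1.56 to FGB at -0.72 on the log2 scale, and their summed level lay between 20813 and 26519 RPKM at 6 h, against 24141 to 29307 at 24 h. For the 8 markers of other cell types, of which 3 could be tested and CD14 was lower (-0.66), the sum lay between 0.884 and 3.63 RPKM at 6 h, against 0.720 to 3.97 at 24 h. The part of these shifts in the differences of the 8 genes was not tested.

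**Figure D4:**
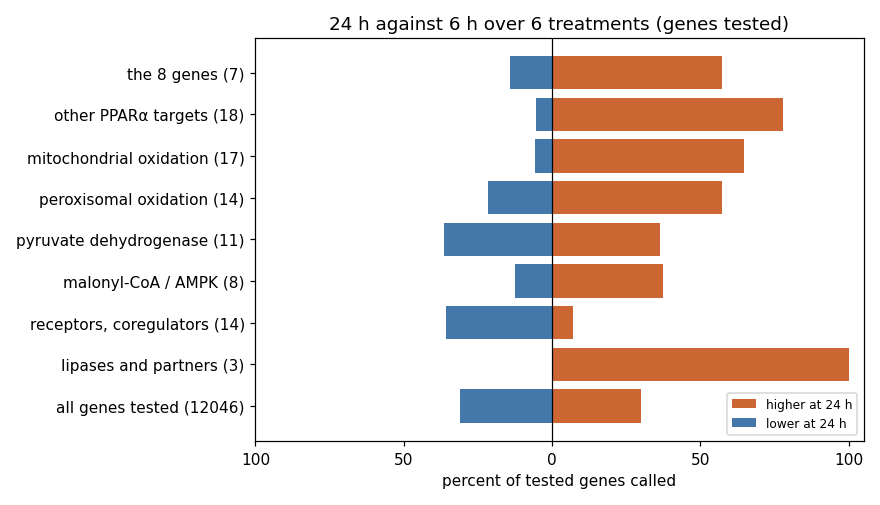
Share of tested genes called higher (right) and lower (left) at 24 h than at 6 h, in percent, for the 8 genes, 7 other gene lists and all 12046 genes, with the number tested in brackets. Of the other PPARα targets 14 of 18 are higher and 1 is lower, against 30.1% and 31% of all genes, and the receptors and coregulators have 1 higher and 5 lower of 14. The lists were chosen with earlier results of these data known.

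The second comparison asked whether DHA, a fatty acid that can bind PPARα, altered the 8 genes. At each time 9 libraries with DHA (alone, with PRO or with PCA) stood against 9 without it (Ctrl, PRO or PCA). At 6 h 0 of the 7 tested genes were called, with 0.202% of 11872 genes called, and 0 had an unadjusted p under 0.05. At 24 h 0 were called, with 1.23% of 11893 genes called, and 2 had an unadjusted p under 0.05. Of all genes, 342 at 6 h and 1175 at 24 h had an unadjusted p under 0.05. DESeq2's Wald test called 45 of all genes at 6 h and 222 at 24 h, and of the 7 it called 0 at 6 h and 1 at 24 h.

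That 1 gene was ACADVL. With DHA it ran from 174 to 218 CPM at 24 h (median 187, n = 9) and without it from 140 to 192 (median 162, n = 9), so that the upper values without DHA overlapped the lower ones with it. The log2 fold change was 0.22 (SE 0.0594, unadjusted p = 0.00125, adjusted p = 0.0787 in edgeR). The means at 24 h were 158 ± 15.9 CPM in Ctrl, 164 ± 13.3 in PRO, 174 ± 20.3 in PCA, 179 ± 4.95 in DHA, 198 ± 20.4 in DHA + PRO and 199 ± 16.9 in DHA + PCA (SD, n = 3). DHA was thus above its counterpart on all 3 backgrounds, and the log2 difference was 0.19 in the earlier series and 0.28 in the later. The adjusted p fell to 0.00990 with the library series as a factor, 0.0340 with no filter on low counts, 0.0317 in DESeq2, 0.0422 without replicate 2 of PRO 0.0455 without replicate 1 of PCA and 0.00337 with the replicate block, so that the call depended on the setting. It rose to 0.179 without the deep replicate 2 of DHA + PRO.

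ACADM had the other unadjusted p under 0.05 at 24 h (log2 fold change 0.22, SE 0.0818, adjusted p = 0.288 in edgeR). It ran from 70.7 to 114 CPM with DHA and from 55.7 to 106 without, and the difference was 0.36 on Ctrl, 0.50 on PCA and -0.21 on PRO, since the PRO group without DHA was itself high (88.6 ± 15.7 CPM, SD, n = 3). CPT1A had the largest value at 6 h, 0.39 (SE 0.188, unadjusted p = 0.0504, adjusted p = 0.9995 in edgeR), with 7.94 to 20.4 CPM with DHA and 7.85 to 17.1 without. Its log2 difference at 6 h was 0.37 on Ctrl, 0.41 on PRO and 0.35 on PCA, with 0.32 in the earlier series and 0.28 in the later. At 24 h its log2 fold change was 0.19 (95% interval -0.10 to 0.48).

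The receptor gene itself gave -0.12 at 6 h (95% interval -0.36 to 0.13) and -0.019 at 24 h (-0.17 to 0.14). For CPT2 the values were 0.025 (-0.15 to 0.20) and -0.093 (-0.27 to 0.081), and for HADHA 0.052 (-0.055 to 0.16) and 0.035 (-0.052 to 0.12). ANGPTL4 had the widest intervals, from -0.39 to 0.66 around 0.14 at 6 h and from -0.63 to 0.30 around -0.17 at 24 h. Its value at 6 h lay between 0.010 and 0.30 when 1 library was left out, and that at 24 h was -0.33 without the deep replicate 2 of DHA + PRO. Changes of ANGPTL4 anywhere within its intervals were compatible with the data at its depth.

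**Figure D5:**
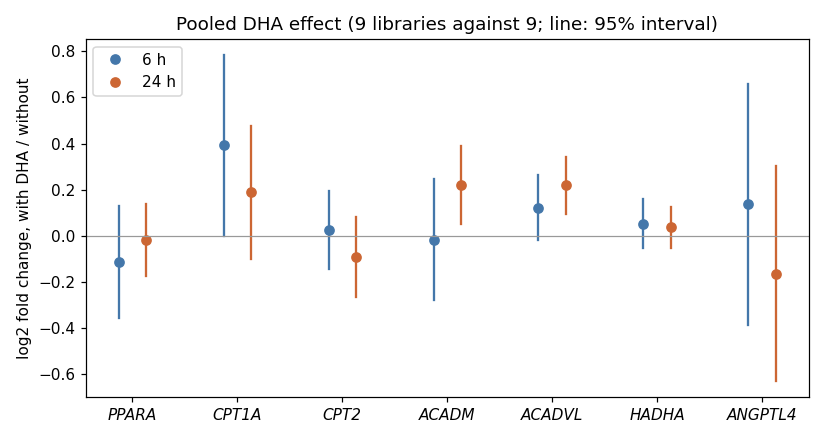
Pooled log2 fold change of 9 libraries with DHA against 9 without, at 6 h (blue) and 24 h (orange), for the 7 tested genes, with 95% intervals. The interval of ACADVL at 24 h (0.22) lies above 0 although its adjusted p was 0.0787, and ANGPTL4 has the widest intervals.

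Set against Ctrl one treatment at a time, 0 of the 7 genes were called by edgeR or DESeq2 at either time. The background was 0% of genes for PRO and PCA at both times in edgeR. At an unadjusted p under 0.05 there were 196 genes for PRO and 86 for PCA at 6 h, and 716 and 454 at 24 h, and DESeq2 called 1 gene for PRO at 24 h. It was 0.0168% for each treatment with DHA at 6 h, and 0.193%, 0.395% and 0.286% for DHA, DHA + PRO and DHA + PCA at 24 h. At 6 h 0 of the 7 had an unadjusted p under 0.05 in any treatment. At 24 h the counts were 1 for PRO (ACADM), 0 for PCA, 1 for DHA (ACADM), 1 for DHA + PRO (ACADVL) and 2 for DHA + PCA (ACADM and ACADVL). Of all genes, 708, 952 and 887 were under 0.05 for DHA, DHA + PRO and DHA + PCA at 24 h, and 337, 264 and 374 at 6 h. The 5 treatments share the same 3 Ctrl libraries. In DHA + PCA the log2 fold changes were 0.49 for ACADM (adjusted p = 0.271 in edgeR) and 0.34 for ACADVL (0.295).

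The change of the pooled DHA effect between 6 h and 24 h passed the test for 0 of the 7 genes and for 0 of 12046 in edgeR (368 genes at an unadjusted p under 0.05, 0 of the 7 among them), while DESeq2 called 6 genes and 0 of the 7. For CPT1A this change was -0.21 (95% interval -0.72 to 0.30) and for ACADVL 0.087 (-0.097 to 0.27).

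Of the 18 tested other targets of PPARα, 1 rose and 2 fell with DHA at 24 h and 15 were not called, against 1.23% of all genes called. CREB3L3, a transcription factor of the fasted liver, rose by 0.63 on the log2 scale (adjusted p = 0.000784 in edgeR). FABP1 fell by 0.41 (adjusted p = 7.15e-05 in edgeR) and UCP2 fell by 0.42 (0.00641). The 3 kept their direction in both library series. FABP1 lay between 545 and 812 CPM with DHA and between 781 and 1117 without, and CREB3L3 between 58.4 and 95.9 with DHA and between 25.1 and 64.2 without. In both genes the ranges overlapped. LIPG fell by 0.44 (adjusted p = 0.00616 in edgeR), from 21.9 to 31.7 CPM without DHA to 15.7 to 21.8 with it. Of the hepatocyte markers TF fell by 0.20 with DHA at 24 h, and its part in these differences was not tested.

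Across the 36 libraries the 7 measurable genes did not move as 1 block. As a description, Pearson's r of log2 CPM over these libraries, which share time and treatment, was highest for PPARA with CPT2 (0.69) and lowest for CPT1A with ACADM (-0.59), and 0.35 for CPT1A with HADHA. ACADVL was between -0.14 and 0.032 with each of the others. Among 10621 candidate genes with an average log2 CPM above 2, the pattern most like PPARA was that of DOCK1 (0.89) and OAS3 (0.88). For CPT1A it was RNF26 and RAB5C (0.85 each), for CPT2 PGM1 and CEMIP (0.83 each), and for ACADM SH3BGRL (0.89) and ZFP1 (0.88). For ACADVL it was VWCE (0.71) and PELP1 (0.69), for HADHA UQCRC2 (0.76) and REXO2 (0.75), and for ANGPTL4 NATD1 (0.75) and TMEM256 (0.72). None of these 14 genes is in the lists described above.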

How the data were processed

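RNA-seq was done on 36 pools of HepG2 RNA, 3 per treatment and time. The authors prepared libraries with a TruSeq RNA v2 kit, which does not mark strand, aligned reads to hg19 (GRCh37) with STAR and counted them per RefSeq gene with iRNA-seq. The deposited values are raw counts, 1 row per gene, with the counted length. The setting for strand in counting and the sequencing runs are not given in the sources used here. Each of the 36 columns was matched to a sample by its title and 0 columns were left over. Groups came from the labels, and doses from the study's methods. No library repeated another (chi-square of at least 1.93 per degree of freedom in each of 630 pairs). Start positions were raised by 1 to count from 1, and all chromosomes fitted the hg19 genome.

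Genes were filtered with filterByExpr by group, scaled by TMM and tested with glmQLFit and glmQLFTest in edgeR 4.0.16 (limma 3.58.1, R 4.3.3), with group means as the design. Fits held all 36 libraries for differences between times and 18 for those within a time. The SE is the log2 fold change over the square root of F. P-values were adjusted over all genes tested. CPM and RPKM used TMM-scaled library sizes, and logs in the within-series values, the differences by background and the correlations had 0.5 CPM added. The steps were tested on simulated data. Python 3.11.15 and matplotlib 3.10.9 drew the figures.

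The 8 genes and all lists were chosen with earlier results of these data known. All 8 genes were named in every comparison. From each other list at most 4 called genes were named, by smallest p in the difference between times or in a pooled DHA effect, and for each gene the 2 genes of most like pattern. Alternatives were DESeq2 1.42.0 (size factors, or its Wald test), no filter, no limit on average log2 CPM, the replicate number or the library series as a factor, other samples in the fit and the omission of each library. The ANOVA of the study was not repeated, ANGPTL8 was not analysed here, and 1 of the gene lists is not reported here.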

Additional observations from a re-analysis of the deposited data

How the results depend on the processing

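For the 7 tested genes, 1451 of 1491 values under other settings kept their call, and 0 calls changed direction. Many of these values were of differences not called in the main fit. With no limit on average log2 CPM no call could change, since all 7 lay above that limit. In the difference between times over all treatments the 5 calls held in each setting, with 7180 to 7431 genes called when 1 library was left out. DESeq2's size factors and the absence of a limit on average log2 CPM moved no count by over 1.5 times. Elsewhere counts changed, and the cause was not tested. Between times within single treatments, counts of all genes moved by over 1.5 times only with the groups compared fitted alone or with 1 library left out. The shares of all genes in the main fit, given above, are thus a rough background for the other settings.

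With no filter on low counts, the number of the 7 genes called between times was 0 in Ctrl, 1 in PRO and 2 in DHA + PCA. It was 1 for pooled DHA at 24 h and 1 for DHA + PCA against Ctrl at 24 h. Over all genes, 5 (DHA) and 7 (DHA + PRO) were called against Ctrl at 6 h, 10 (PRO), 49 (DHA), 79 (DHA + PRO) and 74 (DHA + PCA) at 24 h, and 2 for the change of the DHA effect with time.

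With DESeq2's Wald test 1 of the 7 was called between times in PCA, 2 in DHA + PCA and 1 for pooled DHA at 24 h. Over all genes it called 45 and 222 for pooled DHA at 6 h and 24 h (against 24 and 146) and 6 for the change with time. Against Ctrl it called 10 (DHA), 11 (DHA + PRO) and 7 (DHA + PCA) at 6 h, and 1 (PRO), 46 (DHA) and 55 (DHA + PCA) at 24 h.

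With the library series as a factor 1 of the 7 was called between times in each of PRO, PCA and DHA, 2 in DHA + PCA and 1 for pooled DHA at 24 h. Over all genes 46 were called for pooled DHA at 6 h, 8, 10 and 8 for DHA, DHA + PRO and DHA + PCA against Ctrl at 6 h, 53 for DHA + PCA at 24 h and 1 for the change with time.

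Fitting only the groups compared gave 1 of the 7 between times in PCA and 3 in DHA + PCA. It gave 881 genes in PRO and 1067 in DHA + PRO (against 1694 and 2440), 0 for DHA and 0 for DHA + PRO against Ctrl at 6 h, and 79 (DHA + PRO) and 61 (DHA + PCA) at 24 h. With all 36 libraries in the fit, 38 genes were called for pooled DHA at 6 h, 6, 8 and 8 for DHA, DHA + PRO and DHA + PCA against Ctrl at 6 h, and 15 for DHA at 24 h (against 23).

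The sources do not say whether a shared replicate number marks 1 experiment in all groups. Residuals of libraries with the same number had a mean correlation of 0.268 at 6 h and 0.156 at 24 h, over 0.1 in 37 and 34 of 45 pairs. For different numbers the means were -0.131 and -0.077. Between times the mean was 0.117 for the same number and -0.0575 for different numbers. With the block, 3 of the 7 genes were called between times in PRO, 2 in PCA, 3 in DHA, 2 in DHA + PRO and 3 in DHA + PCA. It was 1 (ACADVL, adjusted p = 0.00337 in edgeR) for pooled DHA at 24 h, 1 for DHA + PRO and 2 for DHA + PCA against Ctrl at 24 h. Over all genes the block gave 64 and 367 for pooled DHA at 6 h and 24 h, 18, 13 and 11 for DHA, DHA + PRO and DHA + PCA against Ctrl at 6 h, 77, 135 and 130 at 24 h, and 8 for the change with time (20 with the block within each time).

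When each library was left out in turn, the number of the 7 called between times was 0 to 1 in Ctrl, PCA and DHA + PRO and 0 to 2 in DHA + PCA, and 0 to 1 for pooled DHA at 24 h. Genes called between times ran from 1554 to 2058 in DHA (2341 with all) and from 1485, without the deep replicate 2 at 24 h, to 2596 in DHA + PRO. For pooled DHA the range was 10 to 36 at 6 h, then 113 to 223 at 24 h, and for the change with time from 0 to 2. Against Ctrl they ran from 1 to 2 (DHA), 1 to 6 (DHA + PRO) and 1 to 3 (DHA + PCA) at 6 h, and from 11 to 16, 21 to 31 and 20 to 30 at 24 h. Depth limits ANGPTL4, with a median of 9 reads at 6 h, and PDK4, which was not tested.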
